A study of Mus musculus with 4 samples.

Results

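Krt6a, Krt6b, Krt16 and Krt17, wound and stress keratins of mouse skin, were followed together with Gm5414, a gene near the Krt6 genes. RNA came from the epidermis of newborn pups with or without Skiv2l in their keratinocytes. The 5 genes were taken by name from 54752 genes in the tables, and all 5 were among the 13609 protein-coding genes that passed a filter on FPKM, a fragment number per length of transcript and per size of library. All 5 were higher in both Skiv2l-deficient pups than in both controls, which held for 18.2% of tested genes, by 68.7-fold for Krt6a, 54.5-fold for Krt6b, 15.9-fold for Krt16, 11.4-fold for Gm5414 and 2.74-fold for Krt17 on mean FPKM. Together they took 3.67% and 3.92% of all keratin FPKM in the control libraries and 44.7% and 42.6% in the Skiv2l-deficient libraries.

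Keratins build the intermediate filaments of epithelial cells, in which each filament subunit pairs a type I with a type II keratin. Basal keratinocytes use Krt5 with Krt14, and differentiating suprabasal keratinocytes switch to Krt1 with Krt10. The type II keratins Krt6a and Krt6b and the type I keratins Krt16 and Krt17 are normally found in hair follicles, nail and other appendages, and are switched on in the epidermis between follicles after wounding and in hyperproliferative skin disease. Mutations in their human counterparts cause pachyonychia congenita. Gm5414 is a predicted type II keratin gene next to the Krt6 genes.

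The pups were C57BL/6 mice at postnatal day 0. The 2 Skiv2l fl/fl K14-Cre (knockout) pups carried floxed Skiv2l alleles and a Cre transgene under the keratin 14 promoter, which is constitutively active in basal keratinocytes, and the 2 Skiv2l ctl pups were littermates. By the study's methods the name Skiv2l ctl covers fl/fl littermates without Cre and fl/+ heterozygotes with or without K14-Cre, and which of these each pup was is not given, so the controls may carry Cre or a floxed allele too. SKIV2L is the helicase of the complex that feeds RNA into the cytoplasmic exosome. Skiv2l had an FPKM of 19.3 and 19.1 in the control libraries and of 10.8 and 8.55 in the knockout libraries. The knockout libraries were thus lower, and neither was at 0. Each library came from a different pup. The limma p-values below weigh the change against the spread between pups within a genotype, moderated over all tested genes. In whole epidermis, more cells that express a gene and more RNA per cell cannot be told apart.

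The 4 libraries were of similar depth. The ratio of coverage to FPKM, which follows the number of aligned bases, was 6.085 and 6.274 in the control libraries and 5.843 and 5.931 in the knockout libraries. Across all tested genes, 1223 were called higher, which is 8.99%, and 3455 were called lower, which is 25.4%, at a Benjamini-Hochberg adjusted p under 0.05 from limma on log2(FPKM + 1). All 5 genes, named the 5 stress keratins from here on, were called higher. Gm5414 is counted under this name only for its place near the Krt6 genes. The median log2 fold change over tested genes was -0.20, and it was -0.03 with each library scaled to the same median, under which 1894 rose and 1623 fell. The direction of the 5 keratins and their calls were the same under this scaling. All fold changes below are on the log2(FPKM + 1) scale, with knockout over control.

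Krt6a (ENSMUSG00000058354.7) and Krt6b (ENSMUSG00000023041.7) lie beside each other in the type II keratin cluster on the minus strand of chromosome 15, at chr15:101689910-101694307 and chr15:101676023-101680287 of GRCm38, with 9 exons each. Their coding sequences were identical at 1622 of 1659 aligned bases (97.8%), with a longest identical run of 280 bases. The stretch of 60 coding bases where they differ most, from coding base 817 to 876, held 10 of the differences. It is shown because reads over such bases are what tells the 2 genes apart, with the differing bases in capitals. In Krt6a it lies at chr15:101692484-101692543 and in Krt6b at chr15:101678303-101678362, and both are written 5′ to 3′ on the minus strand.
Krt6a: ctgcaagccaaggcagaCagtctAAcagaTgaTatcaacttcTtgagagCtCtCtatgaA
Krt6b: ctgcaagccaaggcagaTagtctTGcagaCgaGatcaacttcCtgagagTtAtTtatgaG

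Of all 75-base stretches in the Krt6a transcript, 36.2% also occurred in Krt6b, and 36.9% of those of Krt6b occurred in Krt6a. Reads from these stretches could be assigned to either gene, so the division of FPKM between them is less certain than their sum. A further 14.5% of Krt6a stretches occurred in Gm49428, annotated antisense to it, and the use of strand in the counting is not given. The sum of Krt6a and Krt6b FPKM was 175 and 270 in the control libraries and 12814 and 13678 in the knockout libraries. Krt5 held 4.54% of Krt6a stretches and 0.925% of those of Krt6b, and Gm5478 held 6.44% and 3.52%. Krt5 had an FPKM of 2003 and 2075 in the control libraries, so even a small shared part could add to the sum there. The part of Krt5 and Gm5478 reads in the sum was not tested.

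Krt6a had an FPKM of 59.1 and 98.7 in the control libraries and of 5247 and 5589 in the knockout libraries. The groups were far apart, and the control libraries differed from each other more, in proportion, than the knockout libraries did. Its log2 fold change was 6.13 (SE 0.23, limma adjusted p = 5.1e-05), the third largest rise of all tested genes. Taking the libraries in every pairing, the ratio of FPKM ranged from 53.2 to 94.6. Krt6b, its near copy, had an FPKM of 116 and 171 in the control libraries and of 7566 and 8089 in the knockout libraries, again with the second control library above the first. Its log2 fold change was 5.79 (SE 0.18, limma adjusted p = 3.1e-05). Among the tested genes Krt6b moved from rank 335 and 227 by FPKM in the control libraries to rank 2 in both knockout libraries, where it stood behind Krt1, the suprabasal type II keratin, with 8246 and 9975. Krt6a moved from rank 832 and 421 to rank 6 in both.

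Gm5414 (ENSMUSG00000064232.2, chr15:101624028-101628188, minus strand, 9 exons) is annotated with a coding sequence of 1656 bases and no untranslated regions, so its FPKM rests on the coding exons alone. Its coding sequence was 86.8% identical to that of Krt6a and 86.1% to that of Krt6b, against 97.8% between the last pair. Of its 75-base stretches 4.35% occurred in any other gene, and 4.23% occurred in Krt6b. Krt6b had an FPKM of 7566 and 8089 in the knockout libraries, so even a small shared part could add to the FPKM of Gm5414. The part of Krt6b reads in the values of Gm5414 was not tested. Gm5414 had an FPKM of 14.7 and 13.8 in the control libraries and of 155 and 169 in the knockout libraries. The 2 groups did not overlap, and the pups within each were close. The log2 fold change was 3.42 (SE 0.09, limma adjusted p = 1.5e-05). It stayed the lowest of the 5 in every library, and the ratio of Krt6b to Gm5414 FPKM went from 7.90 and 12.4 in the controls to 48.7 and 48.0.

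Of the 5 genes, only Gm5414 had a promoter in the RefSeq promoter set used here. The 250 bases before its RefSeq start, which lies 64 bases upstream of the GENCODE start of the gene above, at chr15:101628253-101628502 on the minus strand of GRCm38.p6, are shown because they hold matches to 2 of the 6 motifs searched on both strands. In capitals are a match to the AP-1 motif (TGANTCA), the site of Fos and Jun proteins, from base -195 to -189, and a match to the TATA box (TATAAA) from base -27 to -22, counted from the start.
Gm5414 promoter: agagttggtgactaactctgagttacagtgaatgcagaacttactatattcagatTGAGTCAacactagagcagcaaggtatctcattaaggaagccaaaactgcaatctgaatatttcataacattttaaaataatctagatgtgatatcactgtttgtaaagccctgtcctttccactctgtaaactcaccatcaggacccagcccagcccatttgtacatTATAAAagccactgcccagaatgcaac

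The AP-1 letters occurred in 6.75% of the 32851 promoters in the table and the TATA letters in 12.4%. Among the tested keratins with a promoter there, AP-1 letters were found in 2 of 32, and among those called higher in 1 of 9, which was Gm5414. Krt6a, Krt6b, Krt16 and Krt17 had no promoter there, so they are not among these and were not searched. The letters searched for STAT (TTCNNNGAA), NF-kB (GGANTTTCC), C/EBP (TTGCNNCAA) and the antioxidant response element (TGACNNNGC) were in 7.02%, 1.07%, 1.74% and 10.2% of promoters and were not in the window of Gm5414.

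Krt16 (ENSMUSG00000053797.10) and Krt17 (ENSMUSG00000035557.9) are neighbours in the type I keratin cluster on the minus strand of chromosome 11, at chr11:100246091-100248902 and chr11:100256217-100261029, with 8 exons each. They are not near copies in the way the Krt6 genes are, with 78.9% of aligned coding bases identical. The 60 aligned coding bases with the most differences, from coding base 35 to 94 of both, held 19. They are shown beside the Krt6 stretch for that contrast, with differing bases in capitals, from chr11:100248797-100248856 for Krt16 and chr11:100260872-100260931 for Krt17 on the minus strand.
Krt16: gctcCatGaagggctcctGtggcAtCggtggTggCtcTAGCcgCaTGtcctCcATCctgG
Krt17: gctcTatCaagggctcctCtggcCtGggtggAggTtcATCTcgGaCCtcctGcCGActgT

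No 75-base stretch of Krt17 occurred in another gene, so its FPKM is the one among the 5 that no shared stretch of this length touches. For Krt16, 22.5% of stretches occurred in the pseudogene Gm11597 and 6.44% in Krt14.

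Krt16 had an FPKM of 338 and 359 in the control libraries and of 5434 and 5680 in the knockout libraries, with both groups tight and well apart. Its log2 fold change was 3.99 (SE 0.10, limma adjusted p = 1.3e-05). Krt17 had an FPKM of 498 and 519 in the control libraries and of 1481 and 1301 in the knockout libraries, and it was the one of the 5 that was lower in the second knockout library than in the first. Its log2 fold change was 1.45 (SE 0.10, limma adjusted p = 4.6e-04). The call of Krt17 did not hold against a change of at least 2-fold (adjusted p = 0.115) or when genes without an FPKM filter were tested (adjusted p = 0.0574).

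**Figure D1:**
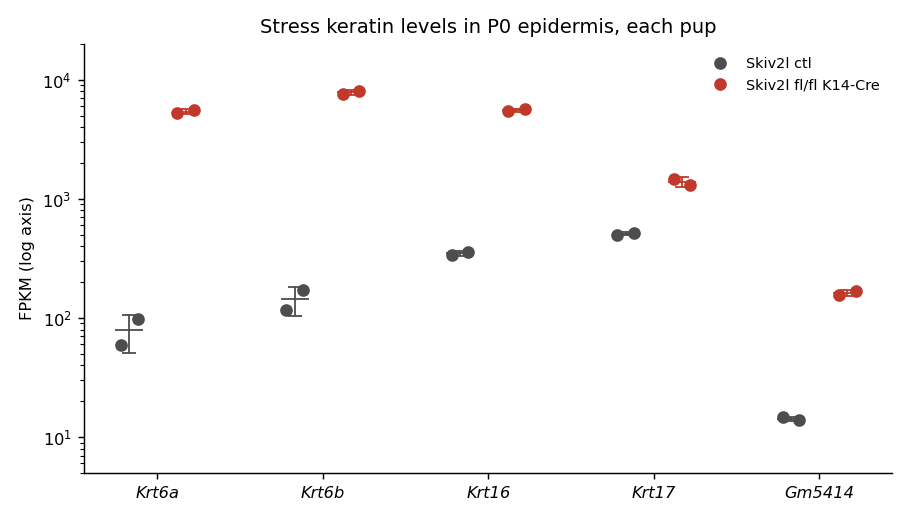
FPKM of the 5 stress keratins on a log axis, with 1 point for each pup and a bar with whiskers for the mean and SD of 2 pups. Red Skiv2l fl/fl K14-Cre points lie above grey Skiv2l ctl points for every gene, with the widest gap for Krt6a (59.1 and 98.7 against 5247 and 5589) and the narrowest for Krt17 (498 and 519 against 1481 and 1301).

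The order of the 5 by level, which FPKM allows since it is per transcript length, was not the same in the 2 genotypes. In both control libraries Krt17 was highest, followed by Krt16, Krt6b, Krt6a and Gm5414, and no neighbours in this order overlapped. In both knockout libraries Krt6b was highest, Krt16 and Krt6a followed, and Krt17 and Gm5414 came last. There Krt16 (5434 and 5680) and Krt6a (5247 and 5589) overlapped and could not be ordered beyond the spread between pups. The ratio of Krt16 to Krt17 went from 0.679 and 0.691 to 3.67 and 4.37, and the ratio of Krt6b to Krt6a from 1.96 and 1.73 to 1.44 and 1.45. On the log2 scale these ratios changed by 2.54 for Krt16 over Krt17 (pooled SD 0.13) and by 0.34 for Krt6a over Krt6b (pooled SD 0.088), the smallest difference in change among 7 pairs of the 5 genes compared. The 2 genotypes did not overlap for any of the 7 ratios. An exact two-sided permutation test of 2 against 2 pups cannot give a p below 0.333, which every pair had. Adjusting over the 7 pairs cannot lower it.

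Keratins as a whole, with these 5 counted in, took a larger share of FPKM in knockout epidermis. All keratins together took 7.76% and 8.06% of summed FPKM in the control libraries and 11.9% and 12.9% in the knockout libraries. The 5 stress keratins went from 0.285% and 0.316% of all FPKM to 5.33% and 5.50%, a rise no smaller than that of all keratins. Krt6a, Krt6b and Gm5414 made up 1.23% and 1.76% of type II keratin FPKM in the controls and 54.8% and 52.7% in knockout epidermis. Krt16 and Krt17 made up 6.70% and 6.49% of type I keratin FPKM in the controls and 33.2% and 30.9% in knockout epidermis. Set against Krt10, the main type I keratin of suprabasal cells, Krt6a and Krt6b together were at 1.89% and 2.64% of its FPKM in the controls and at 201% and 169% in knockout epidermis. The exact permutation p of each of these shares was 0.333, the smallest possible.

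**Figure D2:**
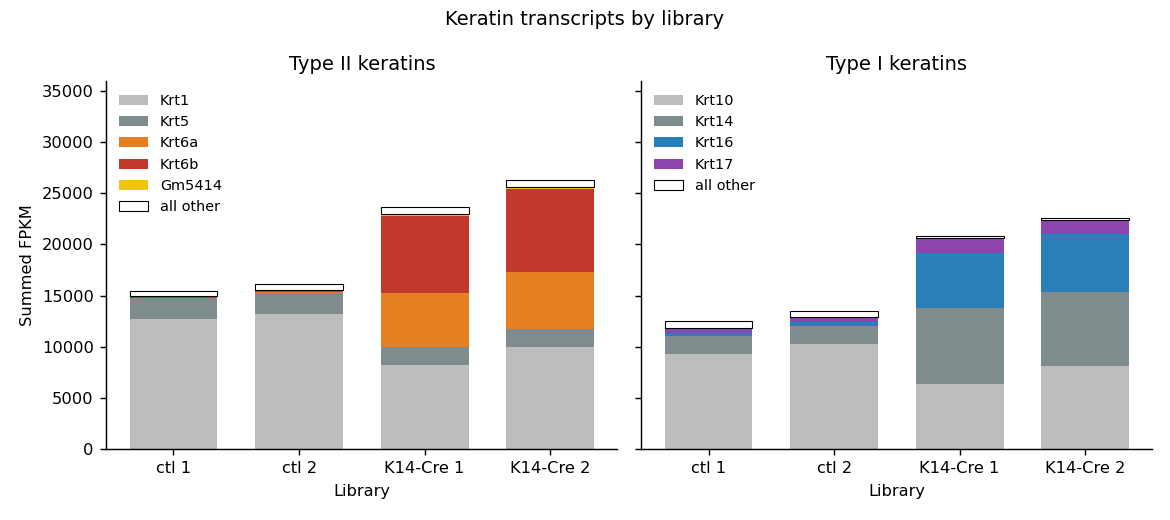
Stacked FPKM of type II keratins (left) and type I keratins (right) in each of the 4 libraries, with the 5 stress keratins in colour, Krt1, Krt5, Krt10 and Krt14 in grey and all other keratins in white. Colour fills under 2% of the type II bars in the 2 control libraries and 54.8% and 52.7% in the 2 knockout libraries.

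Since type I and type II keratins pair, their sums were compared. The ratio of summed type I to type II FPKM was 0.807 and 0.838 in the control libraries and 0.880 and 0.860 in the knockout libraries, a shift from 0.822 ± 0.022 to 0.870 ± 0.014 (SD, n = 2) in which the groups did not overlap. With the 5 stress keratins left out, the ratio was 0.762 and 0.797 in the controls, against 1.30 and 1.26 in knockout epidermis, so that type II exceeded type I in the controls and type I exceeded type II without Skiv2l. The basal pair was the uneven one among the rest. Krt14 had an FPKM of 1736 and 1812 in the controls and of 7381 and 7312 in knockout epidermis (log2 fold change 2.05, SE 0.11, limma adjusted p = 1.7e-04), while its partner Krt5 had 2003 and 2075 against 1761 and 1759. The change of Krt5 was -0.21 (SE 0.10, limma adjusted p = 0.130), and it ranged from -1.16 with quantile normalization, where it was called lower (as with TPM), to 0.00 with median scaling. The ratio of Krt14 to Krt5 was 0.866 and 0.873 in the controls, against 4.19 and 4.16 in knockout epidermis. The suprabasal ratio of Krt10 to Krt1 was 0.729 and 0.777 in the controls, against 0.773 and 0.810 in knockout epidermis, and there the groups overlapped. When the basal and stress keratins were added, the ratio of Krt14, Krt16 and Krt17 to Krt5, Krt6a and Krt6b was 1.18 and 1.15 in the controls and 0.981 and 0.926 without Skiv2l. Exact permutation p was 0.333 for every ratio whose groups did not overlap. FPKM counts RNA, and protein was not analysed here.

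**Figure D3:**
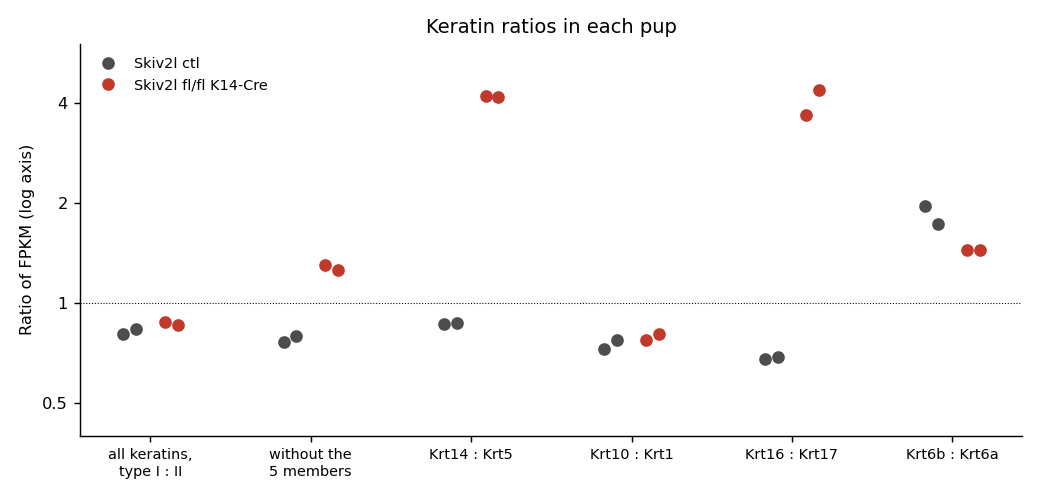
Ratios of FPKM in each pup on a log axis, with the dotted line at 1. The ratio of all type I to type II keratins lies between 0.807 and 0.880 in the 4 libraries, and with the 5 stress keratins left out it lies at 0.762 and 0.797 in Skiv2l ctl (grey) and at 1.30 and 1.26 in Skiv2l fl/fl K14-Cre (red).

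Along the chromosomes, the 5 genes stood in 2 unbroken runs of tested genes that were called higher. Over all tested genes 8.99% were called higher, and only runs holding a gene of the 5 were sought. On chromosome 15 the run held 8 keratin genes over 169.3 kb, Krt84, Krt82, Krt90, Krt75, Gm5414, Gm5478, Krt6b and Krt6a, and it ended at Krt5, which was not called. On chromosome 11 it held 4 over 66.7 kb, Krt14, Krt16, Krt17 and Krt42, between Krt19 and Eif1, which were not called. Every gene of both runs was above the controls under each of the 15 alternative settings but not always called. Leaving out either control library removed the calls of Krt82, Krt90 and Krt42, and leaving out the first knockout library removed those of Krt82 and Krt42. With no FPKM filter 5 of the 8 and 1 of the 4 were called, and the calls lost were those of Krt82, Krt90, Krt75, Krt14, Krt17 and Krt42. Against a 2-fold change those of Krt82, Krt90, Krt17 and Krt42 were lost. Krt82 also lost its call among genes of every type and with eBayes without a trend.

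The neighbours differed widely in level. Gm5478, which stands between Gm5414 and Krt6b, had an FPKM of 23.2 and 21.3 in the controls and of 130 and 133 in knockout epidermis (log2 fold change 2.51, SE 0.08, limma adjusted p = 3.7e-05). Krt75, the type II keratin of the hair follicle companion layer, had 0.903 and 2.02 against 16.8 and 10.8 (log2 fold change 2.60, SE 0.27, limma adjusted p = 0.00166). Gm5478 stood above Gm5414 in the controls and below it without Skiv2l, with a ratio of Gm5414 to Gm5478 of 0.632 and 0.646 against 1.20 and 1.27, while Krt75 was below all 5 stress keratins in every library. Of the Gm5478 stretches, of the length used above, 5.7% occurred in Krt6a and 3.05% in Krt6b. Both Krt6 genes were far above Gm5478 in the knockout libraries, so even a small shared part could add to its FPKM. The part of Krt6a and Krt6b reads in the values of Gm5478 was not tested. Krt42, a type I keratin gene beside Krt17, had 0.229 and 0.384 against 1.50 and 1.09 (log2 fold change 0.81, SE 0.16, limma adjusted p = 0.0136).

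**Figure D4:**
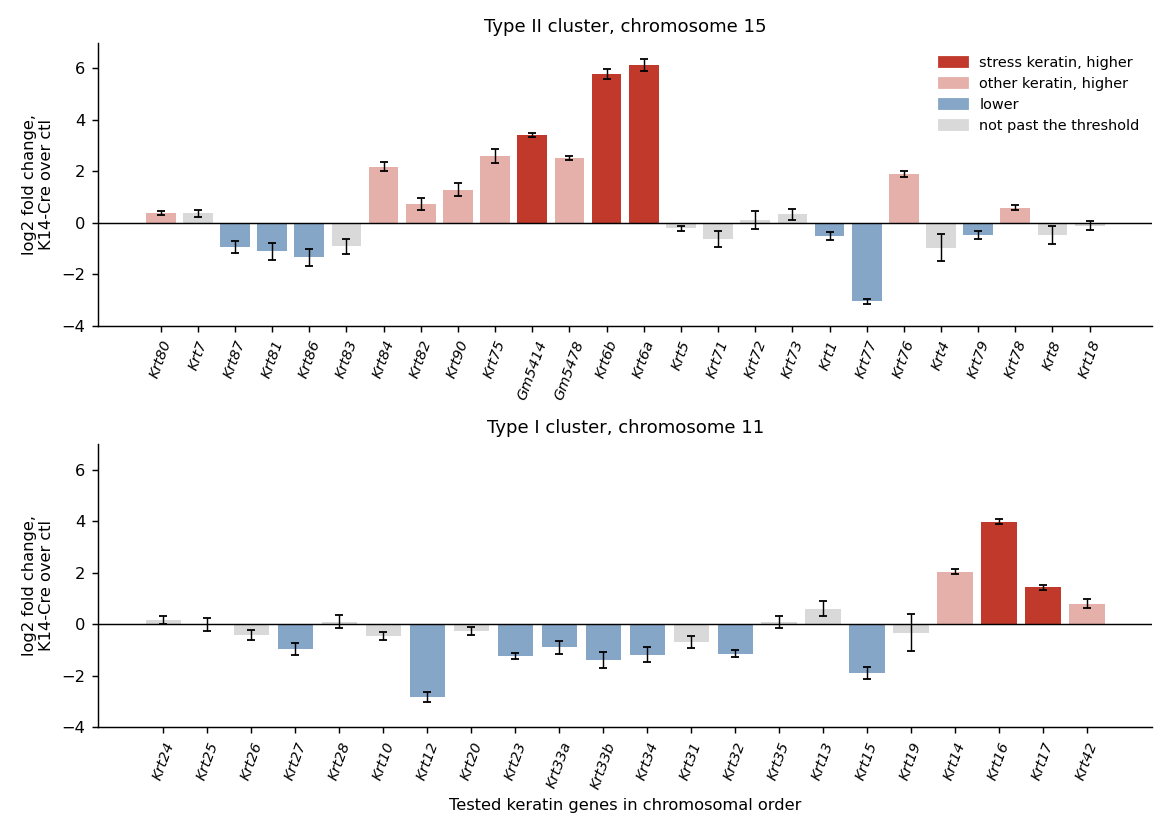
Log2 fold change (bars) with standard error (whiskers) of tested keratin genes in chromosomal order, for the type II cluster (top, with the type I gene Krt18 at its end) and the type I cluster (bottom). Dark red marks the 5 stress keratins, pale red other keratins called higher, blue those called lower and grey those that did not pass, with Krt6a at 6.13 and Krt77 at -3.04 at the extremes.

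Among the 48 tested keratins, Krt6a, Krt6b, Krt16 and Gm5414 had the 4 largest rises, and Krt17 was the tenth. Of 25 tested type II keratins 11 were higher and 6 lower (median log2 fold change 0.33), and of 23 tested type I keratins 4 were higher and 8 lower (median -0.32), against -0.20 over all tested genes. Leaving out the 5 stress keratins from the 48, 10 were higher and 14 lower, beside 8.99% higher and 25.4% lower over all tested genes. The keratins that fell were led by Krt77, a suprabasal type II keratin, which had an FPKM of 70.8 and 71.2 in the controls and of 7.23 and 8.37 in knockout epidermis. Krt12, the type I keratin of the cornea, had 9.01 and 6.18 against 0.256 and 0.165, and Krt15, a type I keratin of basal and follicle stem cells, had 462 and 428 against 92.1 and 155 (log2 fold change -1.89, SE 0.23, limma adjusted p = 0.00258).

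Keratinocyte signals known to switch on the Krt6, Krt16 and Krt17 genes include ligands of the epidermal growth factor receptor and cytokines. Of the 30 ligands and receptors listed, 22 were tested, 9 were higher and 3 lower, with a median of 0.30, beside 8.99% higher, 25.4% lower and a median of -0.20 over all tested genes. The 3 lower were Il20rb, Tnf and Tgfb1 (log2 fold change -1.38, -0.54 and -0.43). With median scaling or quantile normalization 11 of the 22 were higher and 1 was lower. Epgn, which encodes the receptor ligand epigen, had an FPKM of 1.0 and 0.713 in the controls and of 38.5 and 20.5 in knockout epidermis (log2 fold change 3.98, SE 0.28, limma adjusted p = 4.4e-04). Areg, the ligand amphiregulin, had 3.60 and 1.42 against 17.5 and 7.20 (log2 fold change 1.88, limma adjusted p = 0.0218), and Il24, a cytokine of the interleukin-10 family, had 0.242 and 0.0979 against 4.34 and 2.15 (log2 fold change 1.81, limma adjusted p = 0.00440). For each of these 3 the first knockout library was the higher one, as for Krt17, while Krt6a, Krt6b, Krt16 and Gm5414 were higher in the second. The call of Areg was lost without either control library or without the first knockout library, and that of Il24 without the second control library. Egf, Il6, Osm, Il17a, Il22, Il19, Il20 and Ifng did not reach the FPKM filter.

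Of the 19 transcription factors listed for their ties to stress keratin genes, 6 rose and 4 fell, with a median of 0.10. Over all tested genes, the background for both lists here, 8.99% rose and 25.4% fell, with a median of -0.20. The counts of the 19 became 7 and 1 under median scaling, or 5 and 3 under quantile normalization. Gli1, the effector of Hedgehog signalling, fell from an FPKM of 36.8 and 35.4 to 12.9 and 12.2 (log2 fold change -1.46, limma adjusted p = 2.9e-04). Ets1 rose from 2.45 and 2.92 to 6.20 and 6.90 (log2 fold change 1.04, limma adjusted p = 0.00258). Junb, a subunit of AP-1, had 107 and 71.9 in the controls and 136 and 261 in knockout epidermis (log2 fold change 1.10, limma adjusted p = 0.0435), and its call was lost without either control library or without the second knockout library. Of the 16 proteins that bind or anchor keratin filaments, 4 were higher and 1 lower at the RNA level, with a median of 0.11, and with median scaling 8 were higher and 0 lower. Eppk1, which encodes the filament linker epiplakin, had an FPKM of 376 and 315 against 750 and 648. Sfn, which encodes the keratin-binding 14-3-3 sigma, had 580 and 516 against 1028 and 950, and Dsp, which encodes desmoplakin, the anchor of keratins at desmosomes, had 741 and 800 against 1213 and 1300. These rises were 1.02, 0.85 and 0.71 on the log2 scale (limma adjusted p = 0.00266, 0.00250 and 0.00381), and the call of Dsp was lost without the first control library.

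Genes whose pattern was closest to each stress keratin were found by Euclidean distance over the 4 libraries, after subtracting each gene's control mean on the log2(FPKM + 1) scale. 2310046K23Rik was nearest to both Krt6a (distance 0.338) and Krt6b (0.198). The other two were Lce3b, a late cornified envelope gene (0.857 from Krt6a and 0.445 from Krt6b), and Il33, an alarmin cytokine (0.860 and 0.420). 2310046K23Rik had an FPKM of 4.81 and 8.53 in the controls and of 415 and 470 in knockout epidermis, with the second control library above the first as in the Krt6 genes. Nearest to Krt16 were Spink7 (0.208), a protease inhibitor gene, and the cornified envelope genes Sprr2a3 (0.306) and Sprr1b (0.350). Sprr1b had 36.3 and 44.0 against 706 and 811, the highest level among these neighbours of Krt16. Nearest to Gm5414 were Hpgd (0.0907), which encodes a prostaglandin-degrading enzyme, 2310034C09Rik (0.161) and Tmprss11g (0.274). 2310034C09Rik had an FPKM of 0 and 0.101 in the controls and of 9.66 and 10.5 in knockout epidermis. Nearest to Krt17 were Nt5c1a (0.0124), Samd12 (0.0666) and Nqo1 (0.0843), which were all under an FPKM of 3 in every library, where the added 1 shrinks the fold. The added 1 also shrinks the fold of 2310034C09Rik, Il33, Lce3b, Spink7, Hpgd and Tmprss11g. Their control FPKM was at most 1.94 (Hpgd), so likeness on this scale need not hold for the fold on FPKM.

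Marker genes of the cell types that an epidermal sheet can hold were measured beside these changes. Of 15 hair follicle markers 1 was higher (Krt75) and 6 were lower, with a median of -0.27. Over all tested genes, the background for each list here, 8.99% were higher and 25.4% lower, with a median of -0.20. With median scaling 3 of the 15 were lower, with a median of -0.14. Their summed FPKM was 247 and 326 in the controls, against 201 and 191 in knockout epidermis. Shh, the follicle signal, had an FPKM of 11.7 and 12.6 against 2.39 and 2.82, and Lef1, a matrix transcription factor, had 31.5 and 33.6 against 9.74 and 8.76. Both were called lower under all 15 alternatives. Of 12 tested interfollicular keratinocyte markers 2 were higher and 4 lower, with a median of -0.28. With median scaling 3 were lower (median -0.07) and with quantile normalization 6 (median -0.51), and Krt2 did not reach the FPKM filter. The summed FPKM of fibroblast markers was 138 and 153 in the controls, against 70.9 and 69.4 in knockout epidermis, and 0 of 6 tested were higher and 3 lower, or 1 and 2 with median scaling. Leukocyte markers summed to 38.7 and 51.6 against 27.7 and 23.1, with 0 of 7 tested higher and 3 lower, and the neutrophil marker Ly6g was listed at 0 in every library. Melanocyte markers summed to 47.5 and 54.4 against 50.6 and 63.5, with 1 of 5 higher (Tyrp1), and endothelial and muscle markers summed to 1.10 and 1.0 against 1.37 and 0.823, with 1 tested and not called. The part of these cell types in the levels of the stress keratins was not tested.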

How the data were processed

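Total RNA of the epidermis of 4 pups, 2 per genotype, was measured. The authors processed the reads with an RNA-seq workflow at their institution, and the aligner, read length and use of strand are not given in the sources used here. The deposited FPKM values had been scaled by the authors for the length of each transcript and for library size, the deposited TPM values sum to 1000000 in each library, and the deposited coverage signal is the mean depth per base. The labels name GRCm38, and 54037 of 54752 genes had the coordinates of GENCODE M21.

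FPKM of repeated identifiers was summed. The 13609 protein-coding genes that exceeded an FPKM of 0.5 in 1 or more libraries were analysed as log2(FPKM + 1) with a pseudocount of 1. Linear models and moderated two-sided tests came from limma 3.58.1 (lmFit, then eBayes allowing a trend; R 4.3.3), p-values were adjusted by Benjamini-Hochberg over all 13609, and the threshold was 0.05. FPKM is not a count, so no count model, interval or detection floor was used, and 2 pups per group limit the precision. Scripts were tested on simulated data. Shares and ratios were compared by exact permutation in SciPy 1.17.1. Coding sequences were aligned with Biopython 1.88 on GENCODE M21 transcripts, shared stretches were sought on both strands, and promoters came from RefSeq (GRCm38.p6). Alternatives were a pseudocount of 0.1, other filters, genes of every type, TPM, 3 scalings, the replicate block, eBayes without a trend, a 2-fold threshold and leaving out each library. Leaving out libraries for the ratio of type I to type II keratins, and the alternatives for the counts of other keratins, were chosen after seeing the data.

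The members and lists were chosen with earlier results of these data known. Genes named were the 5 keratins, Skiv2l, Krt5, Krt14, Krt1, Krt10, Krt75, Krt42, the flanking genes, Gm49428, up to 3 called genes of each list with the largest change, and the 3 genes most alike each keratin. The remaining genes of the 2 runs, the 3 lower ligand and receptor genes, and the non-coding genes at the clusters were named after their values were seen. Krt85 was not analysed here.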

Additional observations from a re-analysis of the deposited data

Results flagged for a closer look

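Of the 41 genes in the 2 keratin clusters that are not protein-coding, and so were outside the main test, 22 were listed at 0 in all 4 libraries. Of the 41, 4 were above the controls in both knockout libraries and called higher by limma among genes of every type. In that fit, 1219 of all 19572 tested genes were called higher. Gm49428, annotated antisense to Krt6a, had an FPKM of 0.548 and 0.475 in the controls and of 87.9 and 94.2 in the knockout libraries, a mean of 91.1. Of its 765 exon bases, 471 (61.6%) lie opposite Krt6a exons, and its FPKM was 0.926% and 0.482% of that of Krt6a in the controls and 1.68% and 1.69% in knockout epidermis. The use of strand in the counting is not given, so reads of Krt6a and of this gene cannot be told apart. Gm44383, a predicted miRNA gene within Krt6b, was listed at 0 in both control libraries and had 21.2 and 8.95 in the knockout libraries, a mean of 15.1. All 55 of its 75-base stretches occurred in both Krt6a and Krt6b on the opposite strand. Gm44342, a like gene within Krt6a, had 12.7 in the first knockout library and was listed at 0 in the other 3. Gm11597, an unprocessed pseudogene on the Krt14 side of Krt16, had 49.6 and 51.5 against 821 and 902, a mean of 861, and 37.6% of the 75-base stretches of its transcript occurred in Krt16. Gm11598, a processed pseudogene near it, had 0.0851 and 0.0910 against 0.877 and 1.22, a mean of 1.05. The part of reads from the neighbouring keratins in these values was not tested.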

How the results depend on the processing

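Krt6a, Krt6b, Krt16 and Gm5414 stayed higher and past the threshold under all 15 alternatives run, with log2 fold changes from 5.43 to 6.49, 5.51 to 6.06, 3.20 to 4.20 and 3.36 to 3.62. Krt17 ranged from 1.17 to 1.66 and passed in 13, failing with no FPKM filter and against a 2-fold change (1.45 in both). The genes called higher and lower, 1223 and 3455, numbered 475 and 927 with no filter, 1894 and 1623 with median scaling, 1683 and 1917 with quantile normalization, and 149 and 59 against a 2-fold change. Leaving out each library in turn gave 497 to 1146 higher and 805 to 3135 lower, with the fewest without the first (497 and 805) or second (542 and 810) control library, where the lone pup is assumed to vary like the other group. Other keratins called higher and lower, 10 and 14, numbered 3 and 3 with no filter and 5 and 2 against a 2-fold change, and 9 were lower with median scaling. They numbered 5 to 10 and 6 to 16 with 1 library left out: 5 were higher without the first and 6 without the second control library, and 6 were lower without the second control or either knockout library. The cause of these shifts was not tested.

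The rise of 39.8 percentage points in the stress keratins' share of keratin FPKM was 52.2 within type II and 25.4 within type I. For shares and ratios of 2 against 2 pups, leaving out a library cannot move the change by over 1 SD and says nothing of their stability. With the replicate block 1264 genes were higher and 3393 lower, and all 5 stress keratins kept their call. Same-numbered pups share only a number (correlation of their deviations -0.077 over 13609 genes). With no read counts used, depth limits could not be computed, and 2 pups per group limit every value.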
